A study of Mus musculus with 3 samples.

Results

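Plasma membrane and lysosomal amino acid transporters were examined in the RNA-seq of melan-a cells, an immortalized line of mouse melanocytes. The genes were taken by symbol, as all numbered members of the *Slc1a*, *Slc3a*, *Slc6a*, *Slc7a*, *Slc36a*, *Slc38a* and *Slc43a* families. They came to 62 of the 22698 Ensembl genes with a value, under 61 symbols. *Slc38a9* stands for 2 of them, since a single-exon gene of 1407 bp that lies 754 bp beyond its end (ENSMUSG00000069056) has the same name. *Slc6a16* was not matched to a gene of the files. All 3 libraries, labelled 1, 3 and 4, belong to 1 group. The cells carry the C57BL/6J strain background and are described as melanocytes derived from Ink4a-ARF-/- mice. They were grown without further treatment in RPMI 1640 medium to which fetal bovine serum (10%), 12-O-tetradecanoylphorbol 13-acetate (200 nM) and cholera toxin (200 pM) had been added. The series calls the 3 samples bioreplicate lines, and says no more on how they were separated, so the spread between them may be partly technical. No other cell type or condition was measured, so every comparison here is between genes or between libraries.

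Members of the SLC7 family include the light chains of heteromeric carriers, which reach the cell surface bound to a heavy chain of the SLC3 family. The remaining families include carriers of glutamine and other neutral amino acids, carriers coupled to protons or sodium, and uptake systems for neurotransmitters and osmolytes. In melanocytes, tyrosine is the substrate of tyrosinase at the start of melanin synthesis, cysteine directs the pathway towards pheomelanin and also feeds glutathione synthesis, and glutamine is a general source of nitrogen and carbon.

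Values are FPKM (fragments scaled to gene length and sequencing depth), adjusted between libraries by the authors and given to 2 decimals. They are per length, so levels of different genes can be set side by side. The order of some genes changes with the length used, as given below. The scaled library sizes, estimated from low values that fell on whole reads, were 54000000, 47000000 and 66200000 reads in replicates 1, 3 and 4. At these sizes 3 reads on a gene of 1 kb came to 0.0453 to 0.0638 FPKM, a floor that covers counting error only. Of 9 melanocyte markers, 8 had a mean of 1 FPKM or more, and *Kit* was at 0.68 FPKM. None of 5 keratinocyte markers reached 1 FPKM, with a summed level of 0.41 to 0.75 FPKM and *Krt1* at 0. Of 5 fibroblast markers 1 did (summed 1.52 to 1.85 FPKM, *Lum* at 0), and of 4 leukocyte and endothelial markers 1 did (summed 0.77 to 1.61 FPKM, *Ptprc* at 0). Of 4 Schwann cell markers 3 did, with a summed level of 86.2 to 138 FPKM. In bulk RNA the number of cells that express a gene and its level per cell cannot be told apart. *Cdkn2a*, the gene that encodes Ink4a and ARF, was at 19.24, 16.49 and 24.32 FPKM in replicates 1, 3 and 4, against a label that describes its loss. The files give 1 value for the whole gene, so reads from any part outside the deletion cannot be told apart.

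Of the 62 transporter genes, 22 had a mean of 1 FPKM or more. This was 35.5% of them, where 45.1% of all genes were at that level. That share of all genes also applies to each count at 1 FPKM given by list below. The same 22 genes reached 1 FPKM in every library, against 44.1% of all genes. At 10 FPKM or more there were 15 transporter genes (24.2%, all genes 23.6%), and at 100 FPKM or more there were 4 (6.45%, all genes 2.56%). The highest 10% of all genes held 7 of them (11.3%). At the other end, 18 were at 0 in all 3 libraries (29%, all genes 31.4%), 14 were above 0 and below 0.1 FPKM, and 8 lay between 0.1 and 1 FPKM. The 4 highest genes, *Slc3a2*, *Slc6a6*, *Slc7a8* and *Slc7a5*, held 61.2% ± 0.451 (SD, n = 3) of the summed FPKM of all 62. The median over the 62 genes was 0.08 on the log2(FPKM + 1) scale, with an SD over libraries of 0.014, and the median over all genes was 0.35.

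**Figure D1:**
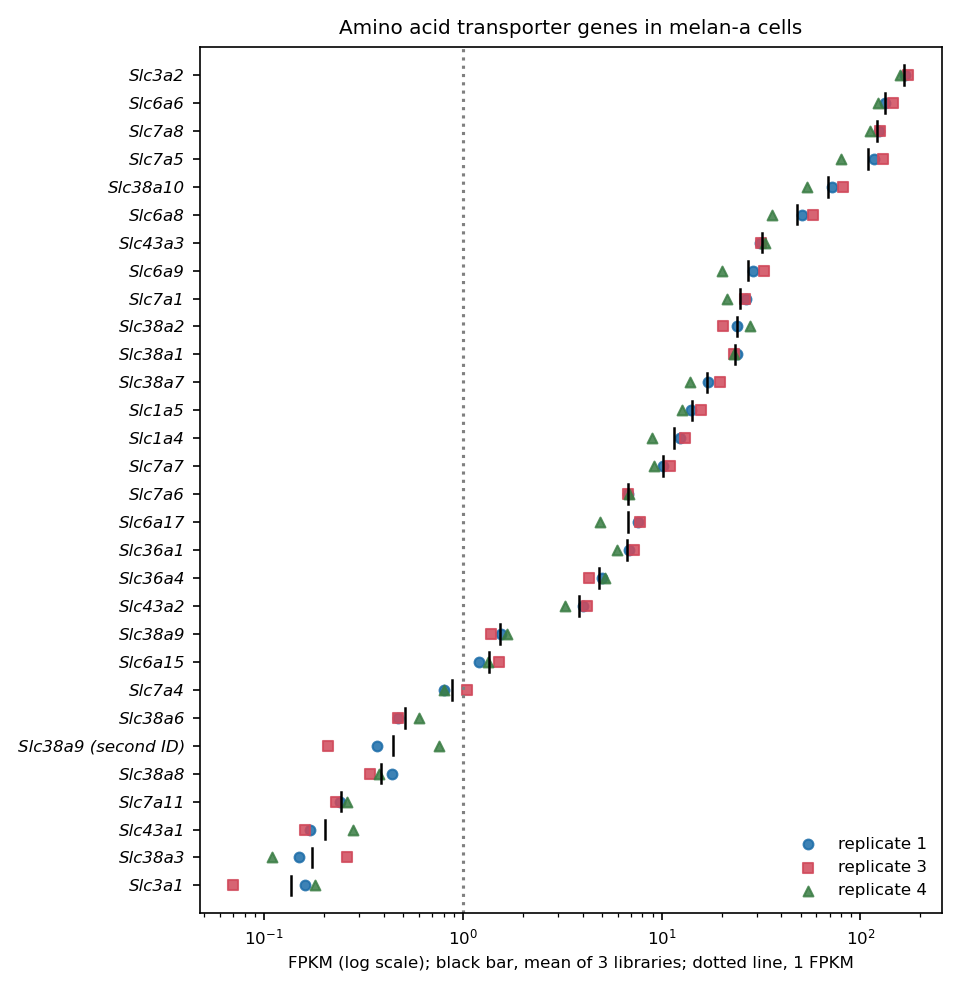
FPKM (log scale) of the transporter genes with a mean above 0.1 FPKM, in order of their means, with a symbol for each of the 3 replicates, a black bar for the mean and a dotted line at 1 FPKM. *Slc3a2* lies highest at 158 to 174 FPKM, 22 genes have means to the right of the line, and *Slc7a11* lies at 0.23 to 0.26 FPKM.

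Of the 4 highest genes, 3 encode subunits of heteromeric carriers. *Slc3a2* (ENSMUSG00000010095, chr19:8781372-8797859 of mm9, minus strand) encodes the heavy chain CD98, the partner of most light chains. It was at 168.15, 173.99 and 157.60 FPKM in replicates 1, 3 and 4, a mean of 167 ± 8.31 FPKM (SD, n = 3) and rank 307 of 22698. The other heavy chain gene, *Slc3a1*, which encodes the partner of the renal cystine carrier, had values of 0.16, 0.07 and 0.18 FPKM. Of its exons, 26.4% overlap *Prepl* on the opposite strand, and the strand setting of the counting was not given in the sources used here. The libraries therefore held *Slc3a2* far above *Slc3a1*, with no overlap of their values.

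For large neutral amino acids, which include tyrosine, a pair of light chains was found at overlapping levels. *Slc7a8* (chr14:55341053-55400723, minus strand) encodes LAT2 and was at 124.45, 125.59 and 111.73 FPKM in replicates 1, 3 and 4 (mean 121 ± 7.69, SD, n = 3). *Slc7a5* (chr8:124405052-124431594, minus strand) encodes LAT1 and was at 116.33, 129.68 and 80.03 FPKM (mean 109 ± 25.7, SD, n = 3). Their values overlapped, and *Slc7a5* was the higher gene in 1 of 3 libraries. The mean log2 ratio of *Slc7a5* to *Slc7a8* was -0.18 ± 0.27 (SD, n = 3; exact sign-flip permutation test, two-sided, p = 0.5, adjusted p = 0.545 over 12 pairs). Per coding length, a setting added after the data were seen, the ratio was -0.32, with *Slc7a5* the lower gene in all 3 libraries. The heavy chain was above *Slc7a5* in 3 of 3 libraries, by 1.45, 1.34 and 1.97 times in replicates 1, 3 and 4. With 3 libraries this test cannot give a p below 0.25, so no pair can pass 0.05, and for each pair the size and the number of libraries in the same direction are given.

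Summed over 9 light chains, the level was 258.00, 273.41 and 208.12 FPKM in replicates 1, 3 and 4. *Slc7a8* held 49.3% ± 3.98 and *Slc7a5* 43.7% ± 4.66 of it (SD, n = 3), together 92.9% ± 0.697. The ratio of *Slc3a2* to this sum was 0.652, 0.636 and 0.757. Transcript ratios say nothing of how many chains were made or paired. Of the other 7 light chains, *Slc7a7* and *Slc7a6*, which exchange cationic for neutral amino acids, held 4.12% and 2.80%, and the remaining 5 had means below 1 FPKM.

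**Figure D2:**
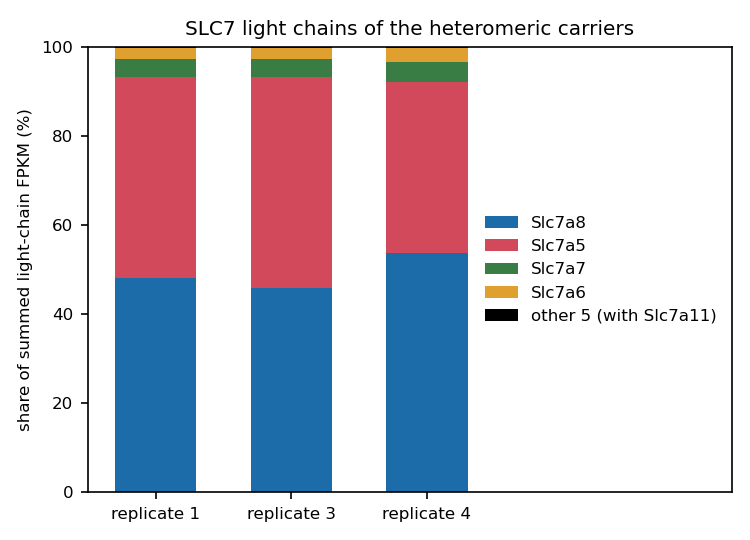
Share of the summed FPKM of 9 SLC7 light chains (%, from 0 to 100) in each replicate, stacked by gene. *Slc7a8* and *Slc7a5* fill 92.1 to 93.4% of each bar, and the 5 genes of the last group, *Slc7a11* among them, are too low to be seen.

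Facilitative carriers of the same substrates were lower. *Slc43a2*, which encodes LAT4, was at 4.0, 4.20 and 3.27 FPKM in replicates 1, 3 and 4, and *Slc43a1*, which encodes LAT3, at 0.17, 0.16 and 0.28 FPKM. The log2 ratio of *Slc43a2* to *Slc43a1* was 3.71 ± 0.49 (SD, n = 3), above 0 in 3 of 3 libraries. *Slc6a19*, the neutral amino acid carrier of intestine and kidney, was at 0 in all 3. Of the 6 genes listed for large neutral amino acids, 4 thus reached 1 FPKM.

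Cystine enters most cells through the exchanger of cystine for glutamate, whose light chain xCT is encoded by *Slc7a11* (ENSMUSG00000027737, chr3:50168858-50247535, minus strand). It was at 0.24, 0.23 and 0.26 FPKM in replicates 1, 3 and 4, with a mean of 0.243 ± 0.0153 FPKM (SD, n = 3) and rank 11457 of 22698. These values stand for about 146, 122 and 194 reads, so the gene was detected in each library and its level was even. It was 0.101% ± 0.0215 (SD, n = 3) of the light-chain sum. *Slc7a5* was 485, 564 and 308 times higher in the 3 libraries, a log2 ratio of 8.28 ± 0.43 on the FPKM + 0.1 scale and of 6.99 per coding length. The merged exons of *Slc7a11* span 11245 bp and its longest coding sequence 1506 bp, so its FPKM depends on the length used. If all its reads were assigned to the coding sequence, the mean would be 1.82 FPKM.

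The 250 bases before the RefSeq start of *Slc7a11* are shown because they hold a pair of amino acid response elements, the sequence bound by ATF4 when amino acids are short. The same stretches of *Slc3a2* and *Slc7a8*, 2 of the 4 highest transporter genes, are set beside it. Capitals mark matches to TGATGNAA on either strand, and the sequences run 5′ to 3′ on the strand of the gene, from the RefSeq promoter table of GRCm38.p6. Each matched mm9 at 1 place, with no base in an annotated exon: chr3:50247536-50247785 for *Slc7a11*, chr19:8788388-8788637 for *Slc3a2* (within the annotated gene) and chr14:55400724-55400973 for *Slc7a8*, all on the minus strand.
Slc7a11: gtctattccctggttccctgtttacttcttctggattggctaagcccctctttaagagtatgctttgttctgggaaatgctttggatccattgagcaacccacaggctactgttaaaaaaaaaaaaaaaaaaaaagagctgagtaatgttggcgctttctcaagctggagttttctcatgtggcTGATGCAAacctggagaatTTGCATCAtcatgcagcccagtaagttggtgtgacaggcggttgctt
Slc3a2: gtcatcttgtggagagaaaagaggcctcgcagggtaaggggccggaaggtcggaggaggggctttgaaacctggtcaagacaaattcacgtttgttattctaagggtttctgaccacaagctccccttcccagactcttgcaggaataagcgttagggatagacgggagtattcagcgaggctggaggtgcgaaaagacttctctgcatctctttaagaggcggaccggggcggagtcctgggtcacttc
Slc7a8: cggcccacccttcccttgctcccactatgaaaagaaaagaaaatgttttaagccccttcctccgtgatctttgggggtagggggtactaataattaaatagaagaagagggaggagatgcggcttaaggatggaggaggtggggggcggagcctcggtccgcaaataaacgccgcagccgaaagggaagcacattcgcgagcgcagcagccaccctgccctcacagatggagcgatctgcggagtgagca
In *Slc7a11* the first match, TGATGCAA, lies at bases -66 to -59 from the start, and the second, TTGCATCA, at bases -47 to -40 and so on the opposite strand. Of 32851 mouse promoters, 3.45% held the motif in this window and 0.0396% held it 2 times or more. Among 43 transporter genes with a promoter sequence, 3 held it, which were *Slc7a11*, *Slc7a7* and *Slc6a21*, 1 of 15 genes at 1 FPKM or more and 2 of 28 below. *Slc6a6* and *Slc7a5* were among the genes without a sequence. For each motif a gene counted if any of its starts held it, and *Slc7a7* has 5 starts. The shares of all promoters are per start, so the gene counts cannot be set directly against them. The antioxidant response element TGACNNNGC, bound by NRF2, was in 7 of the 43 (all promoters 10.2%), 4 of the 15 and 3 of the 28. The E-box CACGTG was in 8 of the 43 (all promoters 6.02%), 2 of the 15 and 6 of the 28. Neither pattern was in the 3 sequences shown. Other E-box forms, among them the M-box that the paper names as a binding site for MITF, were not searched for. The *Slc7a11* stretch holds tcatgtg shortly before its first match, letters that a search for CACGTG does not count. The motifs were chosen after the levels had been seen, and a match is a description of the letters only.

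Among the genes listed for cystine and cysteine, *Slc1a4* and *Slc1a1* carry cysteine itself, the reduced form. *Slc1a4*, which encodes the exchanger ASCT1 of alanine, serine and cysteine, was at 12.30, 13.17 and 8.95 FPKM in replicates 1, 3 and 4. *Slc7a11* lay below *Slc1a4* in 3 of 3 libraries, with a log2 ratio of -5.06 ± 0.36 (SD, n = 3). *Slc1a1*, a glutamate carrier that also takes up cysteine, was at 0.01, 0.01 and 0.00 FPKM. The renal cystine light chains *Slc7a9* and *Slc7a13* were at 0.01, 0.07 and 0.03 FPKM and at 0.04, 0.09 and 0.07 FPKM. Of 7 genes listed for cystine and cysteine, 2 reached 1 FPKM, *Slc3a2* and *Slc1a4*, neither of them a cystine light chain.

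Of 8 genes listed for glutamine, 4 reached 1 FPKM, all of them above 10 FPKM, and the other 4 were far lower or at 0. Their sum was even between libraries, where the summed level of all 8 was 79.43, 79.02 and 77.60 FPKM in replicates 1, 3 and 4. The list was made by hand and may leave out other carriers of glutamine, so the sum covers the listed genes only. *Slc38a2* (chr15:96517825-96530129, minus strand), which encodes the sodium-coupled carrier SNAT2, was at 23.95, 20.28 and 27.73 FPKM. *Slc38a1* (chr15:96401849-96473344, minus strand), which encodes SNAT1, was at 24.05, 23.02 and 23.13 FPKM. The values of these neighbouring genes overlapped, with a log2 ratio of 0.02 ± 0.22 (SD, n = 3), *Slc38a2* the higher in 1 of 3 libraries and an exact sign-flip permutation p of 1. Per coding length, *Slc38a2* would be the lower gene, with a log2 ratio of -0.89. *Slc1a5* (chr7:17366695-17383623, plus strand), which encodes the exchanger ASCT2, was at 14.08, 15.77 and 12.70 FPKM. It lay below *Slc38a2* in 3 of 3 libraries (log2 ratio -0.75 ± 0.38, SD, n = 3). Per longest annotated transcript that ratio was -0.18, with replicate 3 turned. *Slc1a5* lay above its relative *Slc1a4* in 3 of 3 libraries (0.32 ± 0.16). *Slc38a7*, a lysosomal exporter of glutamine, was at 17.18, 19.67 and 13.90 FPKM. *Slc38a3* and *Slc38a5*, which encode SNAT3 and SNAT5, were at 0.15, 0.26 and 0.11 FPKM and at 0.02, 0.02 and 0.03 FPKM, and *Slc6a14* was at 0.

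**Figure D3:**
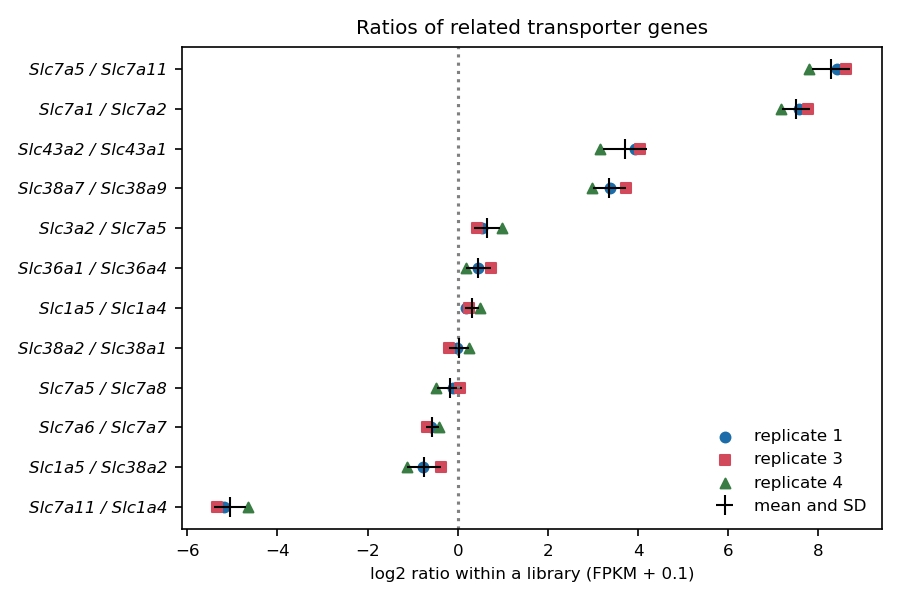
Log2 ratio of 12 pairs of related transporter genes within each library, on the FPKM + 0.1 scale, with a symbol per replicate, bars for the mean and SD of 3 libraries, and a dotted line at equal levels. In 10 pairs all 3 libraries lie on the same side of the line, and *Slc7a5* / *Slc7a8* and *Slc38a2* / *Slc38a1* straddle it.

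Cationic amino acids such as arginine and lysine were represented by 4 of 8 listed genes at 1 FPKM or more. *Slc7a1*, which encodes the widespread carrier CAT1, was at 26.53, 26.24 and 21.38 FPKM in replicates 1, 3 and 4, while *Slc7a2* had a mean of 0.0367 FPKM (log2 ratio 7.50 ± 0.31 on the FPKM + 0.1 scale, higher in 3 of 3 libraries). *Slc7a7* was at 10.18, 10.97 and 9.14 FPKM, with 9.96% of its exons overlapping *Oxa1l* on the opposite strand. *Slc7a6* was at 6.74, 6.78 and 6.86 FPKM and below *Slc7a7* in 3 of 3 libraries, a log2 ratio of -0.56 ± 0.14 (SD, n = 3) that turned to 0.13 per coding length. *Slc38a9*, which encodes a lysosomal arginine sensor, had a mean of 1.54 FPKM, and the second gene of that name 0.37, 0.21 and 0.76 FPKM. *Slc38a7*, the other lysosomal SLC38 gene, was higher by a log2 ratio of 3.37 ± 0.37 (SD, n = 3).

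Outside the genes listed for tyrosine, cystine and glutamine, the highest was *Slc6a6* (chr6:91634061-91709057, plus strand), the carrier of taurine, an osmolyte. It was at 132.45, 146.45 and 121.94 FPKM in replicates 1, 3 and 4, below *Slc3a2* in each library. Per coding length it lay above *Slc3a2* instead, at 439, 485 and 404 against 293, 304 and 275 FPKM. *Slc38a10* followed at 71.59, 81.83 and 53.64 FPKM, with 5.74% of its exons overlapping *Gm11769* on the opposite strand. *Slc6a8*, the creatine carrier, was at 50.56, 57.85 and 35.71 FPKM, and *Slc6a9*, a glycine carrier, at 28.89, 32.65 and 20.13 FPKM. Of the exons of *Slc6a9*, 30.2% overlap genes on the opposite strand, so reads of the pair cannot be told apart there if strand was not used. *Slc43a3*, which encodes a carrier of purine bases, was at 31.13, 31.62 and 33.07 FPKM. Of the 12 SLC6 carriers of neurotransmitters, glycine and osmolytes, only *Slc6a6*, *Slc6a8* and *Slc6a9* reached 1 FPKM, and 7 were at 0, including the dopamine and noradrenaline carriers *Slc6a3* and *Slc6a2*.

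None of the 5 SLC1 carriers of glutamate and aspartate reached 1 FPKM, and their summed level was 0.02 to 0.04 FPKM. Proton-coupled carriers were represented by *Slc36a1*, a lysosomal carrier, at 6.87, 7.29 and 5.93 FPKM in replicates 1, 3 and 4, and by *Slc36a4* with a mean of 4.84 FPKM. *Slc36a1* was higher in 3 of 3 libraries, by a log2 ratio of 0.46 ± 0.28 (SD, n = 3). In the branch of SLC6 that carries neutral amino acids, *Slc6a17*, known from synaptic vesicles, was at 7.63, 7.81 and 4.87 FPKM, *Slc6a15* had a mean of 1.35 FPKM and the other 4 genes were below 0.1. *Slc7a4*, *Slc38a6* and *Slc38a8* had means of 0.883, 0.513 and 0.387 FPKM. Of the exons of *Slc7a4*, 13.9% overlap *P2rx6* on the opposite strand.

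By family, 5 of 15 SLC7 genes, 5 of 19 SLC6 genes, 5 of 12 SLC38 genes, 2 of 7 SLC1 genes, 2 of 4 SLC36 genes, 2 of 3 SLC43 genes and 1 of 2 SLC3 genes reached 1 FPKM. Summed means were 272 FPKM for SLC7, 217 for SLC6, 167 for SLC3 and 136 for SLC38, and 36, 25.7 and 11.6 for SLC43, SLC1 and SLC36. SLC6, the largest of these families, had the second highest sum and the most genes at 0, 11 of 19. Of all genes, 45.1% reached 1 FPKM and 31.4% were at 0 in every library.

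Genes of a family that lie side by side did not always have like levels. *Slc38a1* and *Slc38a2*, 44480 bp apart on chromosome 15, had means of 23.4 and 24 FPKM. On chromosome 11, *Slc36a1* at 6.70 FPKM lies 19272 bp from *Slc36a2* at 0.00667 FPKM, which is 6761 bp from *Slc36a3* at 0.0167. On chromosome 2, *Slc43a3* at 31.9 FPKM lies 72984 bp from *Slc43a1* at 0.203 FPKM, with 1 coding gene between them. The neighbouring SLC6 genes of chromosomes 6 (*Slc6a13* and *Slc6a12*) and 13 (*Slc6a3*, *Slc6a18* and *Slc6a19*) were at 0 or near it.

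In the order of the 22 genes at 1 FPKM or more, 7 of 21 neighbouring pairs had values that did not overlap. *Slc3a2* stood above *Slc6a6*, *Slc6a8* above *Slc43a3*, *Slc38a1* above *Slc38a7* and *Slc7a7* above *Slc7a6*, and so did *Slc36a1*, *Slc36a4*, *Slc43a2* and *Slc38a9* in turn. This order holds for the deposited values only, since *Slc6a6* lay above *Slc3a2* per coding length. The other 14 neighbours overlapped in their ranges, among them *Slc6a6*, *Slc7a8* and *Slc7a5*, and likewise *Slc43a3*, *Slc6a9*, *Slc7a1*, *Slc38a2* and *Slc38a1*.

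The spread between libraries was like that of other genes. The median coefficient of variation of the 22 genes was 11.2%, where it was 11.6% over 10237 genes at 1 FPKM or more. Without replicate 4 both were lower, at 6.19% and 7.36%. It ran from 0.899% for *Slc7a6* to 24.3% for *Slc6a17*, with *Slc7a5* and *Slc6a9* next at 23.6%. Replicate 4 was the lowest library for all 3 of these variable genes. The libraries differed in a way that followed the GC content of transcripts. Across 10232 genes, which are not independent replicates, the log2 ratio of replicate 3 to replicate 4 had a Spearman's rho of 0.78 with GC content (Pearson's r 0.75), and across the 22 transporter genes a rho of 0.87 (r 0.86). Of the 22 genes, 16 were higher in replicate 3, with a median log2 ratio of 0.28, where 5174 of 10232 genes were. After a smooth trend with GC content had been removed from each library, 18 of 22 were higher in replicate 3, with a median of 0.19, against 5295 of 10232 genes with a median of 0.011, and the median coefficient of variation was 7.10% (all genes 7.37%). *Slc7a5*, with a GC content of 56.3%, kept a log2 ratio of 0.37 of the 0.70 it had, and its values became 115, 117 and 90.2 FPKM in replicates 1, 3 and 4. *Slc38a2*, with 43.7%, went from -0.45 to -0.03, and its coefficient of variation from 15.5% to 1.05%. *Slc6a15* went the other way, from 11.5% to 28.2%, as did *Slc7a6*, from 0.899% to 5.37%, and *Slc38a1*, from 2.42% to 4.26%. The part of GC content in the difference between libraries was not tested.

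**Figure D4:**
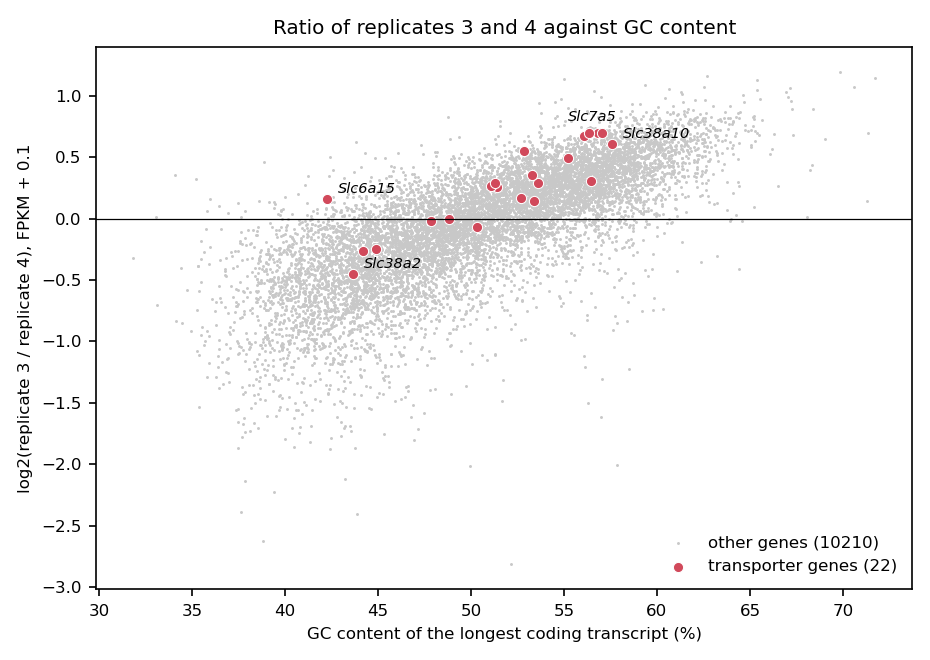
Log2 ratio of replicate 3 to replicate 4 (FPKM + 0.1) against the GC content (%) of the longest coding transcript, for the 22 transporter genes at 1 FPKM or more (red) and 10210 other genes (grey). Both sets rise with GC content, with *Slc7a5* at 0.70, *Slc38a2* at -0.45 and *Slc6a15* in the upper part of the cloud of genes of like GC content.

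Genes that use or move the same amino acids inside the cell were set beside these levels. Among enzymes, *Tyr*, which encodes tyrosinase, was at 72.53, 59.20 and 74.43 FPKM in replicates 1, 3 and 4. It lay below the sum of *Slc7a5* and *Slc7a8* and below *Slc3a2* in each library. The glutathione synthesis genes *Gclc*, *Gclm* and *Gss* had means of 10.7, 12.3 and 8.43 FPKM, each above *Slc7a11* in every library. *Glul*, which encodes glutamine synthetase, had a mean of 45.3 FPKM, and *Gls2* had a mean of 0.297 FPKM. *Asns*, which makes asparagine from glutamine and aspartate, was at 93.67, 98.57 and 84.88 FPKM. In all, 9 of 10 listed enzymes and 7 of 13 listed carriers of other families reached 1 FPKM, where 45.1% of all genes did. Among those carriers, *Mfsd12*, needed for cysteine import into melanosomes and lysosomes, was at 11.75, 12.70 and 8.16 FPKM, and *Ctns*, the exporter of cystine from lysosomes, at 13.23, 13.61 and 14.01 FPKM. Both organelle carriers of cystine or cysteine thus lay above *Slc7a11* in every library. *Slc16a10*, a carrier of aromatic amino acids, was at 0.00, 0.00 and 0.01 FPKM, and the mitochondrial carriers *Slc25a12*, *Slc25a13*, *Slc25a15* and *Slc25a22* had means of 12.2, 5.66, 3.16 and 10.3 FPKM.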

How the data were processed

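RNA was measured in 3 melan-a libraries made with a stranded mRNA kit. Per the paper's methods and the submitters' processing notes, the authors trimmed 10 bases, aligned reads to mm9 with STAR 2.3.0e, removed rRNA reads and counted on Ensembl release 67 with htseq-count (HTSeq 0.5.3p3). The authors' notes also name CASAVA 1.8.2, SAMtools and edgeR. They deposited TMM-scaled FPKM values; the step from counts to FPKM is not given in the sources used here. No counts were used, so no count test was run.

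Names, exons and GC content were read from Ensembl release 65 on mm9, which lacks 374 of the genes, with RefSeq synonyms for 1 transporter gene. Low values of genes with 1 transcript gave whole reads (mean distance from whole 0.048, 0.048 and 0.053 reads in replicates 1, 3 and 4), and thus the library sizes. A value listed as 0 is 0 at 2 decimals. Levels used log2(FPKM + 1), and ratios within a library log2(FPKM + 0.1), with an exact sign-flip permutation test adjusted by Benjamini-Hochberg over 12 pairs. GC trends were removed by lowess (share 0.3), with each gene's mean of log2(FPKM + 0.1) nearly kept. Means in FPKM can move.

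Values were given per library for the tyrosine, cystine and glutamine lists, for other transporter genes at 5 FPKM or more and for the 3 most variable at 1 FPKM or more, as means from 1 to 5 FPKM, and by list below that, with those above 0.1 FPKM named. Genes of other families were given by library or by mean. Values outside this rule, among them *Slc7a2* and silent neighbours, were chosen after they had been seen. Values of a few listed genes are not reported here. Members and lists were chosen with earlier results of these data known. Scripts used statsmodels 0.14.6, scipy 1.17.1, pandas 2.3.3, matplotlib 3.10.9 and numpy 2.4.6 under Python 3.11.15, and were tested on simulated data.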

Additional observations from a re-analysis of the deposited data

How the results depend on the processing

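No paired analysis was possible because all 3 libraries belong to 1 group. The number of transporter genes at 1 FPKM or more (22) and in the highest 10% of genes (7) stayed within 1.5 times under every alternative run, at 20 to 26 and 5 to 8. The median transporter level of 0.08 on the log2 scale became 0.21 with each library rescaled to the same sum, 0.23 with mitochondrially encoded genes left out as well, 2.74 with only genes above 0 in all libraries (all genes 2.84) and -2.67 with a pseudocount of 0.1 (all genes -1.43). The median coefficient of variation of 11.2% was 15.9% with no filter other than above 0 (all genes 14.0%), and 6.19 to 14.5% with each replicate left out in turn. The lowest of these was without replicate 4. Of 96 pair values 92 kept their direction, but many could not have turned. Removal of the GC trend nearly keeps the pair means by construction. For pairs with all 3 libraries on the same side, neither a changed pseudocount nor a library left out can turn the mean. The count of 92 is therefore no measure of stability, and sizes moved. Between pseudocounts of 1 and none, the log2 ratio ran from 4.63 to 9.49 for *Slc7a1* to *Slc7a2* and from 6.43 to 8.78 for *Slc7a5* to *Slc7a11*, and that of *Slc43a2* to *Slc43a1* ran from 2.0 at a pseudocount of 1 to 4.97 per coding length. The log2 ratio of *Slc38a2* to *Slc38a1* turned to -0.094 without replicate 4, -0.090 per longest transcript and -0.89 per coding length, and that of *Slc7a6* to *Slc7a7* to 0.13 per coding length. The smallest adjusted p was 0.25, the least that 3 libraries allow, so the tests say nothing of stability. Coding length and the second *Slc38a9* gene left out were added after the data were seen. The genes at under 3 estimated reads in every library, 22 of the 62, lay below that floor, and levels below it cannot be ordered at this depth.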
